A study of Mus musculus with 8 samples.

Results

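The microRNAs miR-155 and miR-223 were followed in mouse lung after repeated instillation of carbon black nanoparticles into pregnant females. They are the features whose array names are exactly mmu-miR-155 and mmu-miR-223. Both were found, 2 of the 611 mouse miRNAs on the array. All mice were C57BL/6 Bom Tac females that were pregnant during the exposure. The 4 exposed samples came from dams given Printex 90, a commercial carbon black, in nanopure water through the trachea. Each of 4 instillations, on days 7, 10, 15 and 18 of gestation, delivered 0.067 mg, which adds up to 0.268 mg. The 4 vehicle control samples came from dams given nanopure water, and lungs were taken at weaning, 26 to 27 days after exposure. One Cy3 array was hybridised per sample, and the labels do not say whether each sample was a separate animal, so the p-values may reflect technical spread only.

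miR-155 is cut from the transcript of the non-coding host gene Mir155hg, which NF-kB and AP-1 switch on in activated macrophages, dendritic cells and lymphocytes. It represses inhibitors of cytokine signalling such as Socs1 and the phosphatase gene Inpp5d. miR-223 is a miRNA of the myeloid lineage, abundant in neutrophils and monocytes, where it restrains granulocyte production and represses the inflammasome gene Nlrp3. In lung, alveolar macrophages and recruited neutrophils take up inhaled particles, and these are among the cells known to carry them.

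The mature strands are shown to identify what was measured, with the seed that pairs with target messages (bases 2 to 8) in capitals. Sequences are those of RefSeq on GRCm38.p6. The array names carry no arm suffix, and by the older naming miR-155 denotes the 5′ arm and miR-223 the 3′ arm.
miR-155-5p: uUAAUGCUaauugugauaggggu
miR-223-3p: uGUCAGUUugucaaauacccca
Neither seed was shared with any other mature miRNA of the RefSeq mouse table, nor with each other. In the hairpins the measured strand is in capitals.
Mir155 hairpin: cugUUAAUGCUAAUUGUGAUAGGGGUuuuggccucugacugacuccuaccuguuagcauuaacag
Mir223 hairpin: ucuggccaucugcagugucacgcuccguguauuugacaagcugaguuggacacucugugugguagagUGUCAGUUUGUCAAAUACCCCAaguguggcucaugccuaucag
Mir155 lies at chr16:84714140-84714204 on the plus strand, within the span of the long non-coding gene Mir155hg (84713023 to 84715245). Mir223 lies at chrX:96242817-96242926 on the plus strand, within the span of the long non-coding gene F630028O10Rik (96239926 to 96243642). The next gene along the X chromosome is Vsig4, a complement receptor of tissue macrophages, 4275 bases beyond the hairpin. The opposite arms, miR-155-3p and miR-223-5p, had no array feature by the names searched.

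Signals are given relative to the 75th percentile of each array's miRNAs detected on all 8 arrays, and a miRNA counted as detected where at least 50% of the spots of 1 of its probes were well above background. Single arrays detected 248 to 283 mouse miRNAs, 240 were detected on all 8, and the 268 detected on at least 4 arrays were tested. Both miR-155 and miR-223 were detected on all 8 arrays, so neither passed the filter through 1 group only. All arrays shared 1 slide and 1 scan, with row 1 of the slide holding only controls and row 2 only Printex 90 samples, so slide row and exposure cannot be told apart. Printex 90 replicate 3 had the lowest 75th percentile (580.8 intensity units, against 628.4 to 804.7 on the other arrays). It also had the fewest detected mouse miRNAs (248, against 251 to 283), and the differences, ratios and correlations of the pair are also given without it. It was not alone in standing apart: limma's array weights were 0.527 for it and 0.540 for Printex 90 replicate 1, against 0.748 to 1.715 on the other arrays. Lung markers were present: the epithelial miR-200a, miR-200b, miR-200c, miR-141 and miR-429 and the endothelial miR-126-3p and miR-126-5p were each detected on all 8 arrays.

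miR-155 was higher on most of the Printex 90 arrays than on the controls, by an amount that did not pass correction over all tested miRNAs. Its relative signal was 0.0517, 0.0680, 0.0475 and 0.0458 on control replicates 1 to 4. On Printex 90 replicates 1 to 4 it was 0.0948, 0.0782, 0.0547 and 0.0765. Thus 3 of the Printex 90 arrays lay above every control, while replicate 3 lay among the controls, below control replicate 2. Of all tested miRNAs, 14 had at least 3 Printex 90 arrays above every control, a background of 5.22%. Groups that did not overlap at all were found for 4 miRNAs (1.49%), 3 of them with Printex 90 higher (1.12%), and neither miR-155 nor miR-223 was among these. The group means were 0.0760 ± 0.0164 (SD, n = 4) after Printex 90 and 0.0533 ± 0.0101 (SD, n = 4) in controls. The log2 difference was 0.50 (SE 0.19), a 1.42-fold difference with a 95% interval of 1.03 to 1.95. With limma the unadjusted p was 0.0353 and the adjusted p 0.706. The exact permutation p was 0.0571 (2-sided, 70 assignments), where the smallest that 4 arrays against 4 can give is 0.0286, and 0.824 after Benjamini-Hochberg adjustment over all tested miRNAs.

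For the comparison as a whole, limma called 0 of 268 miRNAs at an adjusted p of 0.05, a background of 0.00%. An unadjusted limma p under 0.05 was reached by 15 miRNAs (5.60%), of which 8 were higher after Printex 90, and miR-155 was 1 of these. Of the 268, 85 had a positive and 176 a negative log2 difference (median -0.05), and 3 had a larger positive difference than miR-155.

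For miR-223 the groups differed by less than their arrays varied. Its relative signal was 1.58, 2.21, 1.92 and 1.84 on control replicates 1 to 4, a group mean of 1.89 ± 0.262 (SD, n = 4). On Printex 90 replicates 1 to 4 it was 1.93, 1.92, 3.21 and 1.70, a group mean of 2.19 ± 0.690 (SD, n = 4). Printex 90 replicate 3 lay above all other arrays, and the other Printex 90 arrays lay within the range of the controls. The log2 difference was 0.18 (SE 0.21), a 1.13-fold difference with a 95% interval of 0.801 to 1.60. The limma adjusted p was 0.767, and the exact permutation p was 0.543 (2-sided) and 0.846 after adjustment over all tested miRNAs. Without Printex 90 replicate 3 the log2 difference was -0.02 and the Printex 90 mean 1.85 ± 0.128 (SD, n = 3). It was 0.05 when the percentile, the floor on low values and the filter were also recomputed without that array, 0.05 with limma's array weights, 0.10 without control replicate 1 and 0.29 without Printex 90 replicate 4. The interval leaves room for a difference of 1.60-fold in one direction and 0.801-fold in the other, so equal levels are not shown.

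**Figure D1:**
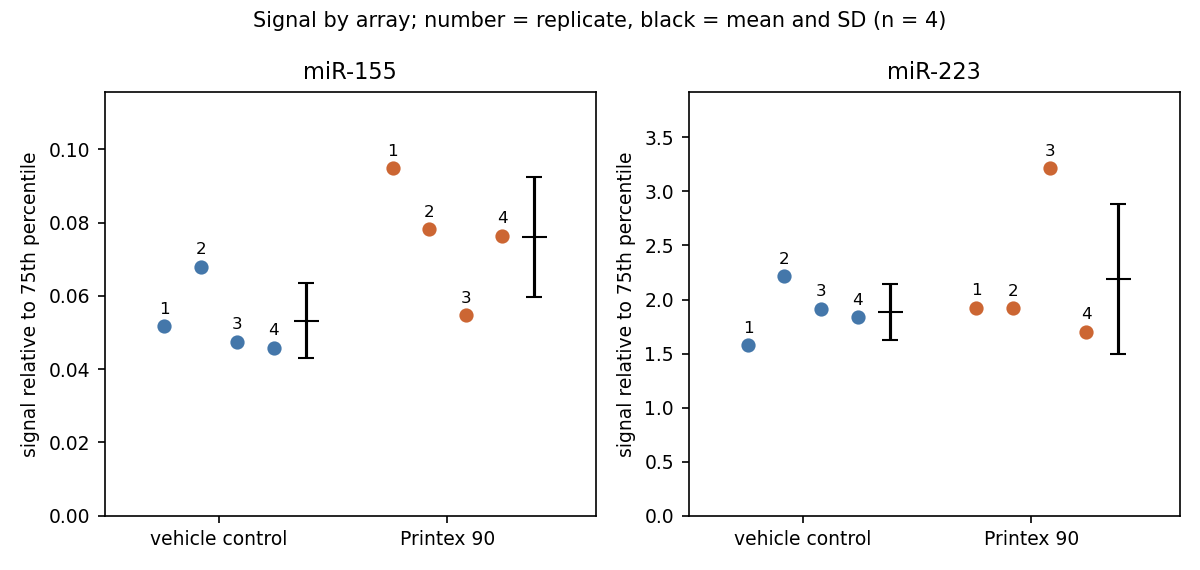
Signal of miR-155 (left) and miR-223 (right) relative to each array's 75th percentile, by group. Each point is 1 array with its replicate number, and the black bar is the mean and SD over 4 arrays. For miR-155 Printex 90 replicate 3 (0.0547) sits among the controls and the other exposed arrays lie above them; for miR-223 replicate 3 (3.21) lies above all other arrays.

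The array that held the lowest miR-155 of the exposed group thus held the highest miR-223 of all. Over the 8 arrays the log2 signals of the pair had a Pearson r of -0.07 (exact permutation p = 0.892) and a Spearman rho of 0.33 (exact permutation p = 0.428), 1 relation computed. Without the 2 arrays farthest from the median of miR-155, control replicate 4 and Printex 90 replicate 1, r was -0.14. Without Printex 90 replicate 3, r was 0.25 (exact permutation p = 0.581), and over deviations from the group means of all 8 arrays it was -0.42, so the sign of r changed with that array. On Printex 90 replicate 3, miR-223 stood 0.79 log2 units above the mean of the 7 other arrays, the largest such deviation among the 240 miRNAs detected on all arrays. The next were miR-375, a miRNA of neuroendocrine and secretory epithelium, at 0.65, and miR-34b-5p and miR-34c, of multiciliated cells, at 0.54 and 0.53. miR-155 stood at -0.22 on that array, and the median miRNA at 0.02.

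Leaving out Printex 90 replicate 3, the 3 remaining exposed arrays lay above all 4 controls for miR-155 (0.0831 ± 0.0101, SD, n = 3, a log2 difference of 0.65). This separation follows from leaving out the only exposed array that lay among the controls, so it adds no support to the count above. The limma adjusted p was then 0.243 and the exact permutation p 0.0571 (2-sided). Groups separated in this way, with Printex 90 higher, held 8 of 268 miRNAs (2.99%). Without that array limma called 3 miRNAs (1.12%), namely miR-21, miR-146b and miR-135b, and neither miR-155 nor miR-223 was among them. With Printex 90 replicate 1 left out instead, the array with the highest miR-155, the miR-155 log2 difference fell to 0.39. The limma adjusted p was then 0.655 and the exact permutation p 0.114 (2-sided).

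Each miRNA was read by 2 probes with 10 spots apiece on every array, which shows how far a value rests on the probe and on spot noise. For miR-223 the probes A_54_P2629 and A_54_P2630 were well above background on every kept spot. The first measured 352 ± 46.0 intensity units in controls and 370 ± 71.2 after Printex 90, and the second 943 ± 132 and 1040 ± 247 (mean ± SD over 4 arrays each). Their log2 differences were 0.13 (exact permutation p = 0.543, 2-sided) and 0.20 (exact permutation p = 0.571), and -0.04 and -0.01 without Printex 90 replicate 3. Spots of 1 probe on 1 array varied by 1.79% to 5.58% (coefficient of variation), while the arrays of 1 group varied by 13.9% in controls and 31.5% after Printex 90. The spread of miR-223 therefore lay between arrays rather than between spots. Both probes were highest on Printex 90 replicate 3, at 467 and 1399 units, before any scaling.

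miR-155 was a dim feature, and its 2 probes did not carry it equally well. Probe A_54_P2337 was well above background on all kept spots of all arrays, and measured 25.3, 31.0, 21.5 and 26.4 units on control replicates 1 to 4. On Printex 90 replicates 1 to 4 it measured 42.4, 41.5, 24.4 and 39.2 units. The log2 difference of this probe after scaling was 0.55 (exact permutation p = 0.0571, 2-sided), and replicate 3 alone among the exposed arrays lay within the control range. Without that array the difference was 0.68 (exact permutation p = 0.0571), and the larger value follows from leaving out the lowest exposed array. Probe A_54_P2336 ran from 7.43 to 17.2 units over the 8 arrays. It was well above background on 2, 0, 0 and 2 kept spots of control replicates 1 to 4, with 10 kept on each. On Printex 90 replicates 1 to 4 the counts were 6, 9, 0 and 4, with 9 or 10 kept. It was not detected on any control array, so no difference is given for it. It is still summed into the miR-155 signal, as 0.0152 of 0.0533 in controls and 0.0202 of 0.0760 after Printex 90.

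Against the array's own blanks, the brighter miR-155 probe lay close to the top of the background in controls. Of the 7 negative control probes, 6 averaged between 0.833 and 4.80 units on every array, while the brightest averaged 17.0 to 26.3. Probe A_54_P2337 exceeded that brightest blank on 2 of 4 control arrays and on 4 of 4 Printex 90 arrays. The blank itself measured 23.8 ± 2.55 units in controls and 20.7 ± 3.24 after Printex 90 (SD, n = 4). Probe A_54_P2336 stayed below it on all 8 arrays. The brightest probe set for a herpesvirus miRNA, mghv-miR-M1-2, gave relative signals of 0.204 to 0.270 over the 8 arrays, above miR-155 on every array. By the detection rule used here, 3 or 4 of the 39 herpesvirus miRNAs counted as detected on each array, so detection alone does not separate a dim signal from background. The part of background hybridisation in the miR-155 signal was not tested.

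**Figure D2:**
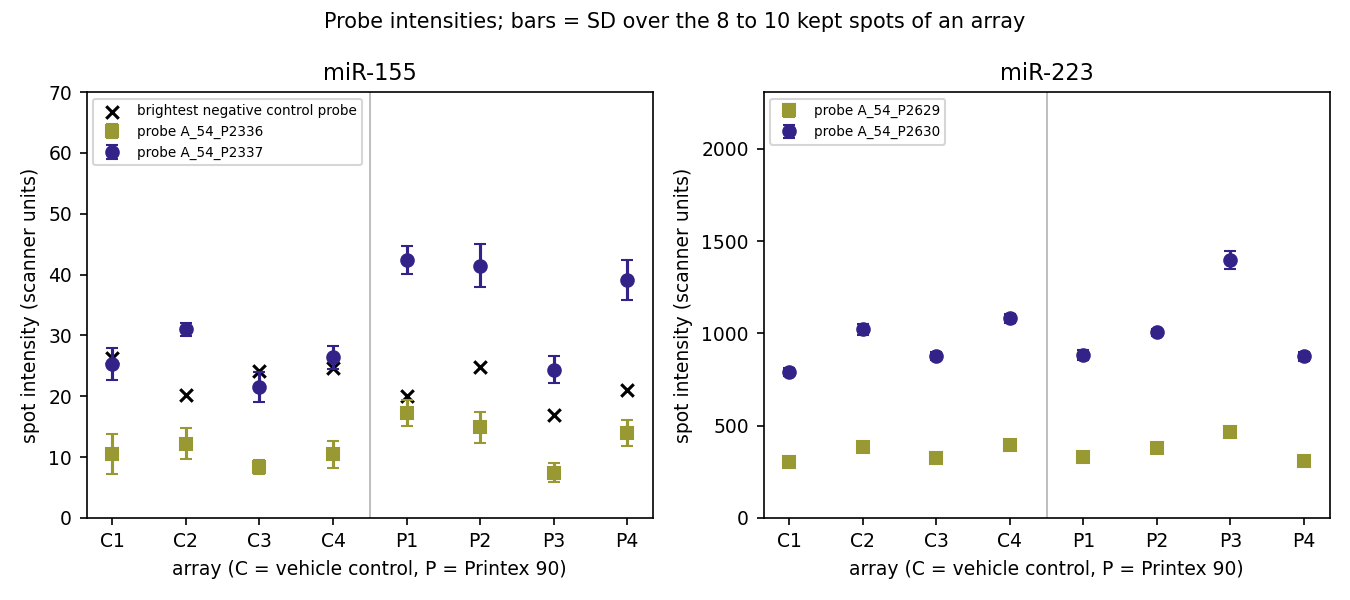
Mean intensity in scanner units of each probe of miR-155 (left) and miR-223 (right) on every array, with bars for the SD over the kept spots of that array; crosses mark the brightest negative control probe. Probe A_54_P2337 of miR-155 reaches 39.2 to 42.4 units on Printex 90 replicates 1, 2 and 4 and 24.4 on replicate 3, while both miR-223 probes peak on replicate 3.

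Lung tissue is a mixture, and in it more cells of a type and more of a miRNA per cell cannot be told apart. The signals were also set against miR-142-3p, a miRNA made by all blood cell lineages, within each array, which removes any scaling between arrays. Such a ratio shows unequal change only and does not separate cell number from miRNA per cell. The ratio of different probes has no absolute meaning and only its change between groups is read. miR-142-3p itself measured 4.43 ± 0.418 in controls and 4.37 ± 0.332 after Printex 90 (SD, n = 4), a log2 difference of -0.02 (SE 0.08).

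The log2 ratio of miR-155 to miR-142-3p was -6.29, -6.21, -6.49 and -6.58 on control replicates 1 to 4 and -5.55, -5.68, -6.28 and -5.97 on Printex 90 replicates 1 to 4. Again 3 exposed arrays lay above all controls, as they did for 11 of the 267 tested miRNAs set against miR-142-3p (4.12%). The means differed by 0.53, a 1.44-fold change of the ratio (exact permutation p = 0.0571, 2-sided), so this comparison missed the threshold of 0.05 as well. Without Printex 90 replicate 3, the exposed array with the lowest ratio, the difference was 0.66. The exact permutation p was then 0.0286, the smallest that 35 assignments can give. The share of all tested miRNAs whose ratio passes without that array was not computed, so no result is read from this p. Against miR-142-5p, the other strand of the same hairpin, all 4 exposed arrays lay above all controls (difference 0.57, exact permutation p = 0.0286, the smallest the design allows). So did 3 of the 267 tested miRNAs set against miR-142-5p (1.12%). miR-142-5p was at its lowest of all 8 arrays on Printex 90 replicate 3 (0.795), which raises the ratio on the array whose miR-155 lay among the controls. Without that array the difference was 0.65 (exact permutation p = 0.0286), again with no share of all tested miRNAs computed. The ratio of miR-223 to miR-142-3p was -1.24 ± 0.09 in controls and -1.04 ± 0.46 after Printex 90 (SD, n = 4), a difference of 0.20 (exact permutation p = 0.571). On Printex 90 replicate 3 it was -0.40, and without that array the difference was -0.02.

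The other miRNAs linked to Toll-like receptor and NF-kB signalling, with miR-155 and miR-223 left out, were 12 by name, of which 8 passed the filter. After Printex 90, 6 stood higher and 2 lower. Their median log2 difference was 0.15, against -0.05 for all tested miRNAs, and 0 passed an adjusted limma p of 0.05. miR-147, miR-9 and miR-187 were detected on no array and miR-132 on 2. The largest differences of members detected on all arrays were those of miR-146b at 0.80 and miR-21 at 0.49, with miR-146a at 0.24. miR-21* was detected on every Printex 90 array but, among controls, on replicate 4 only, so it passed the filter through the exposed group. Its difference of 0.54 enters the count and the median above but is not read as support. miR-146a and miR-146b are induced by NF-kB and dampen receptor signalling, and miR-21 is induced in inflamed and injured tissue. miR-212, let-7e, miR-125a-5p and miR-125b-5p lay between -0.06 and 0.07. The median was 0.07 over members detected on all arrays, which leaves out miR-21*, and 0.03 with normexp background correction.

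Of 8 miRNAs of white blood cells 7 were tested, and 1 was higher (miR-146a, which the inflammation-linked list also holds) and 6 lower, with a median of -0.06 and 0 called. Of all 268 tested miRNAs 176 were lower and the median was -0.05, so the median of this list lay near that of all miRNAs. With normexp the medians were 0.04 for this list, 0.03 for the inflammation-linked list and 0.05 for all tested miRNAs, and no difference between the lists was tested. The pan-leukocyte miR-142-3p and miR-142-5p summed to 4.87 to 6.09 in controls and 4.90 to 5.89 after Printex 90. The lymphocyte miR-150 and miR-342-3p summed to 0.621 to 0.733 and 0.601 to 0.695, and the lowest of all arrays was Printex 90 replicate 3. The red blood cell miR-451, miR-144 and miR-486 summed to 19.7 to 46.9 in controls and 21.7 to 30.6 after Printex 90. Their log2 differences lay between -0.27 and -0.20 and none passed, and on Printex 90 replicate 3, where miR-223 was highest, they summed to 21.7, the lowest of the exposed group. The 5 epithelial miRNAs were each highest of all 8 arrays on that array, where they summed to 9.14, against 7.32 to 8.17 in controls. All 5 had a small positive difference (median 0.06), which includes that array. Neither the endothelial (median -0.15), the striated muscle (-0.75) nor the smooth muscle markers (-0.08) held a member past the threshold. The striated muscle miR-1, miR-133a and miR-133b varied widely within both groups, summing to 0.331 to 1.85 in controls and 0.263 to 3.00 after Printex 90. Each was highest of all 8 arrays on Printex 90 replicate 1, where miR-155 was also highest. The part of cell composition in the miR-155 and miR-223 values was not tested beyond these sums.

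**Figure D3:**
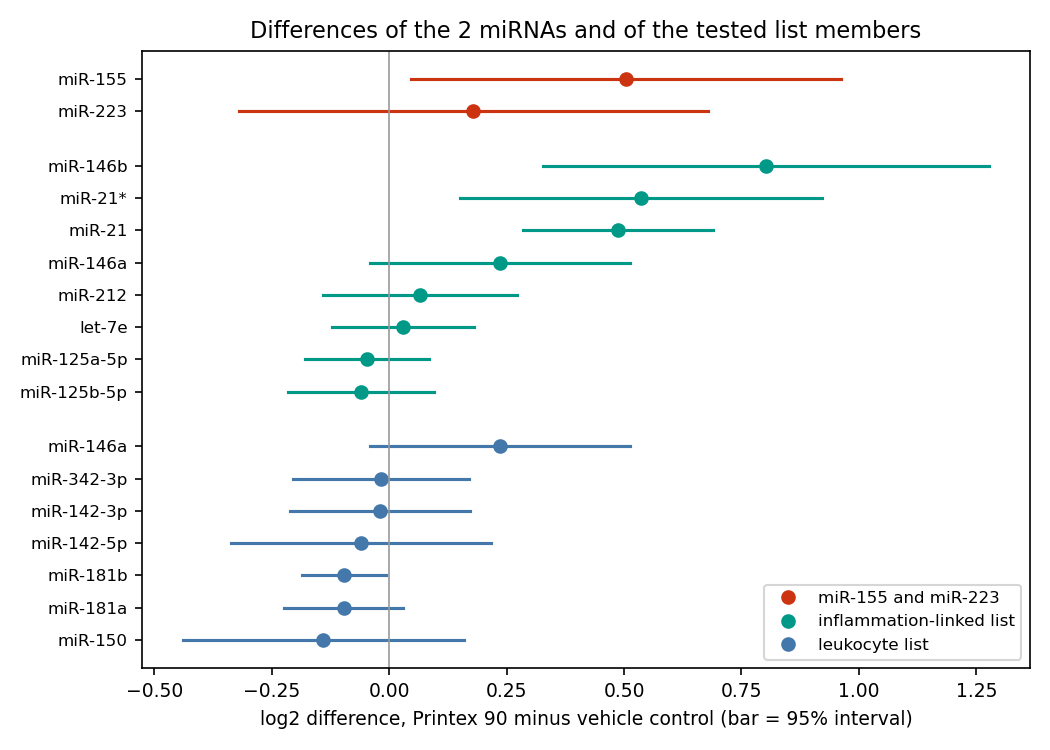
Log2 differences (Printex 90 minus vehicle control) with 95% intervals from limma for miR-155, miR-223 and the tested members of the inflammation-linked and leukocyte lists. The interval of miR-155 runs from 0.05 to 0.96 and that of miR-223 from -0.32 to 0.68; 0 of the miRNAs shown passed an adjusted p of 0.05.

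The miRNAs whose log2 signals over the 8 arrays were most like each of the pair were then taken, as the 5 with the highest Pearson r among the 239 others detected on all arrays. As the highest of many, these correlations are a description without a test, and all arrays share slide, scan and scaling. For miR-155 they were miR-31 (r = 0.96, rho = 0.95), miR-146b (r = 0.93, rho = 0.98), miR-21 (r = 0.90, rho = 0.98), miR-146a (r = 0.86, rho = 0.86) and miR-7a (r = 0.82, rho = 0.83). Taken as deviations from the group means, which removes the mean difference between the groups but not uneven values among the exposed arrays, r was 0.93 for miR-31, 0.88 for miR-146b, 0.90 for miR-21, 0.76 for miR-146a and 0.64 for miR-7a. Without the 2 arrays farthest from the miR-155 median, r ran from 0.69 for miR-7a to 1.00 for miR-146a, and without Printex 90 replicate 3 from 0.85 for miR-146a to 0.97 for miR-31.

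For most of these miRNAs the lowest exposed value was that on Printex 90 replicate 3. miR-21 measured 13.5, 13.7, 12.2 and 11.8 on control replicates 1 to 4 and 19.3, 19.3, 15.5 and 17.7 on Printex 90 replicates 1 to 4. miR-146b measured 0.295, 0.299, 0.280 and 0.224 in controls and 0.605, 0.517, 0.323 and 0.507 after Printex 90. Both were lowest, within the exposed group, on replicate 3, as was miR-155, and both still lay above all controls there. miR-31, a miRNA of epithelial cells, measured 0.164 ± 0.00968 in controls and 0.189 ± 0.0145 after Printex 90 (SD, n = 4) and was likewise lowest of its group on replicate 3 (0.171). miR-146a was also lowest of its group there (1.16), but within the control range (1.05 to 1.31). miR-7a was lowest of the exposed group on replicate 4 (0.0668) and not on replicate 3 (0.0702).

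The strands whose signals were most like miR-155 are printed, seeds in capitals, because a near-identical sequence could let 1 probe read another miRNA.
miR-31-5p: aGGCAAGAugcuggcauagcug
miR-146a-5p: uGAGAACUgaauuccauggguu
miR-146b-5p: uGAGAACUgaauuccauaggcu
miR-21a-5p: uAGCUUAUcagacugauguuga
miR-7a-5p: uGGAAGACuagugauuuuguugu
None holds the miR-155 seed, which does not test whether 1 probe reads another miRNA. Their likeness to miR-155 over the full length was not computed. miR-146a and miR-146b share 1 seed and differ at 2 of 22 bases, so signal from one on the probes of the other cannot be told apart here.

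For miR-223 the nearest miRNAs were miR-340-5p (r = 0.87, rho = 0.79), miR-139-5p (r = 0.83, rho = 0.74), the epithelial miR-200a (r = 0.81, rho = 0.55) and miR-200b (r = 0.72, rho = 0.26), and miR-375 (r = 0.72, rho = 0.55). Without the 2 arrays farthest from the miR-223 median, Printex 90 replicate 3 and control replicate 1, r fell to between 0.29 (miR-200b) and 0.73 (miR-200a). Without Printex 90 replicate 3 alone it was 0.77 for miR-340-5p, 0.58 for miR-139-5p, 0.33 for miR-200a, -0.20 for miR-200b and 0.38 for miR-375, so the likeness rested in part on that array. All 5 were at their highest there: miR-139-5p at 0.106 against 0.0634 to 0.0859 on the other arrays, and miR-375 at 0.182 against 0.0933 to 0.151. The 2 sets of nearest miRNAs had no member in common.

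**Figure D4:**
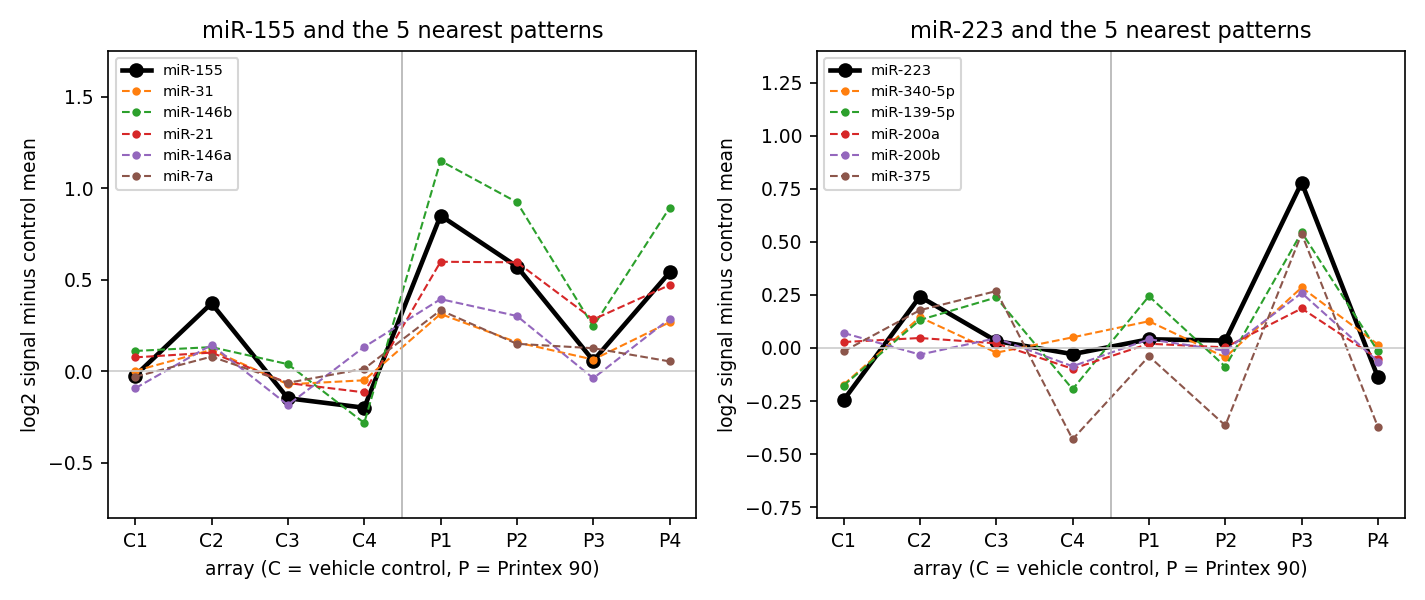
Log2 signal minus the control mean on each array for miR-155 (left, black) and miR-223 (right, black) with the 5 miRNAs of highest Pearson r; lines only join the points of 1 miRNA, and arrays within a group have no order. miR-155, miR-146b and miR-21 dip together on Printex 90 replicate 3 (0.06, 0.24 and 0.28), the array on which miR-223 reaches 0.78.

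The size of the miR-155 difference depended on how signal near background was treated, while its direction did not. It was positive under all 26 alternatives tried, with limma adjusted p between 0.224 and 0.914. The log2 difference fell to 0.07 with the floor on low values doubled, which lies above most of its values, to 0.17 with normexp background correction and an offset of 50, and to 0.21 when the log2 values of its 2 probes were averaged. In the authors' deposited value table, whose values matched quantile-normalized signals without background subtraction, it was 0.22 (unadjusted limma p = 0.00370, adjusted p = 0.226). miR-223, far above background, moved little with these choices (0.09 to 0.25) and more with the arrays included.

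**Figure D5:**
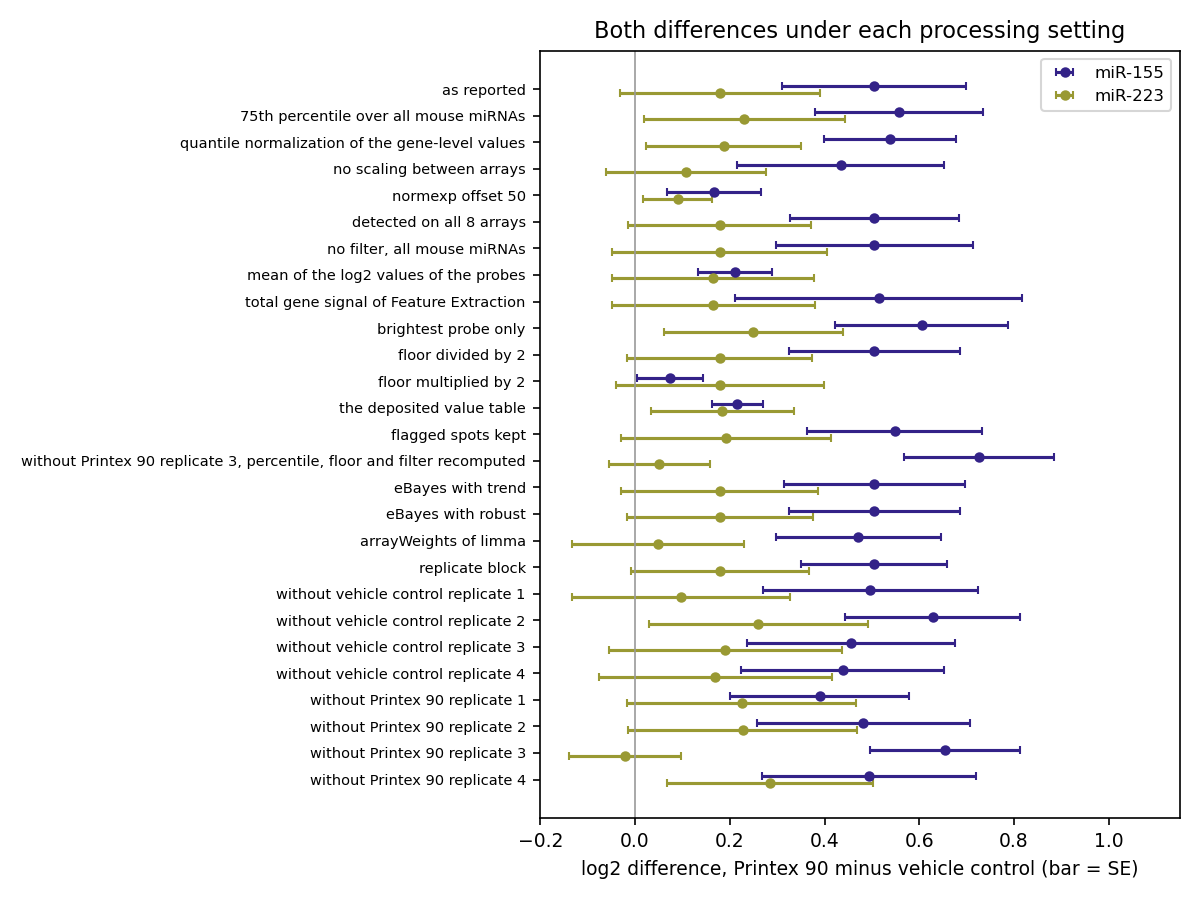
Log2 difference (Printex 90 minus vehicle control) of miR-155 and miR-223 under the reported processing and each of 26 alternatives, with bars for the SE. miR-155 stays above 0 throughout, between 0.07 and 0.73, and miR-223 runs from -0.02, without Printex 90 replicate 3, to 0.29.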

How the data were processed

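Sample titles gave the groups and replicate numbers. Per the labels' protocols, small-RNA-enriched total RNA was extracted and Cy3-labelled with Agilent's miRNA kit. Per the file headers, the authors' deposited spot intensities came from Agilent Feature Extraction 10.7.3.1 (grid 021828), background-subtracted within the array and not normalized between arrays. Flags per spot were deposited with them. A value table deposited by the authors gives 1 log2 value per miRNA and array. How it was made is not given in the labels or headers, but quantile-normalized median spot signals matched it with r = 1 on every array (largest gap 0.024, column medians 5.41 to 5.43). It served as an alternative.

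Flagged spots (2.25% to 2.76% per array) were dropped, and 0 spots were saturated. Spots were averaged and probes summed (1857 probes, 650 miRNAs). Arrays were divided by their 75th percentile, values floored at 0.0388 (5th percentile of detected signals), and log2 taken. limma 3.58.1 (R 4.3.3, lmFit and eBayes, 1.02 prior degrees of freedom) tested 268 miRNAs, 2-sided, with Benjamini-Hochberg adjustment. It was first tested on simulated data. The files give no mean spot signal, so normexp used the median signal. Precision is limited by the number of arrays. The pair, the lists and the alternatives were chosen with earlier results of these data known. Named miRNAs were the pair, the list and marker members, the 5 nearest patterns of each, miRNAs past the threshold and the brightest herpesvirus miRNA. Those next to miR-223 on Printex 90 replicate 3 (miR-375, miR-34b-5p, miR-34c) and the brightest negative control were chosen after their values were seen. Scaling, floor and filter were kept when an array was left out.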

Additional observations from a re-analysis of the deposited data

Results flagged for a closer look

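In 74 groups of 4 arrays (the miRNAs named above that were detected on all arrays, and both ratios to miR-142-3p), the gap between the extreme array and its nearest neighbour was compared with the range, against Dixon's 95% limit. It was exceeded in 3, where chance, at about 1 in 20, gives 3.7. The endothelial miR-126-3p was low on control replicate 2 (log2 relative signal 5.20, next 5.38, gap 0.893 of the range). The muscle miR-133a was high on Printex 90 replicate 1 (-0.87, next -3.78, gap 0.845), and miR-212 on Printex 90 replicate 2 (-2.35, next -2.67, gap 0.954). The muscle miR-1 and miR-133b stayed under the limit but were high on Printex 90 replicate 1 as well. Their relative signals there were 1.55 and 0.896, against 0.131 to 0.208 and 0.0816 to 0.126 on the other exposed arrays. miR-223 on Printex 90 replicate 3 had a gap of 0.804 and stayed under the limit.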

How the results depend on the processing

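The miR-155 difference kept its direction and its side of the threshold under all 26 alternatives, and miR-223 under 25. Leaving out 1 array, miR-155 ran from 0.39 to 0.73 and miR-223 from -0.021 (without Printex 90 replicate 3) to 0.29. The count of miRNAs past the threshold was 0 except without Printex 90 replicate 3, where it was 3, or 2 with percentile, floor and filter recomputed. This last setting, keeping the flagged spots, and the correlations, probes and miR-142-5p ratio without Printex 90 replicate 3 were chosen after seeing the data. The ratio of miR-155 to miR-142-3p passed 0.05 under 4 of 17 alternatives and not under the other 13. It passed against miR-142-5p (0.57), with the mean of floored probe log2 values (0.24) and with the brightest probe (0.55). It also passed without Printex 90 replicate 3 (0.66). It fell to 0.09 with the floor doubled (exact permutation p = 0.371) and to 0.14 with normexp (exact permutation p = 0.486). When 1 array was left out it ran from 0.42 to 0.66. The ratio of miR-223 to miR-142-3p ran from -0.015 (without Printex 90 replicate 3) to 0.35. The inflammation-linked median, 0.15, was 0.03 with normexp, 0.066 over miRNAs detected on all arrays, 0.015 with no filter, 0.044 with the mean of probe log2 values, 0.048 with the floor doubled and 0.061 in the deposited table (0.12 to 0.21 with 1 array left out). The leukocyte median, -0.06, was 0.044 with normexp (-0.08 to -0.004 with 1 array left out). The cause of these shifts in the list medians was not tested. With the replicate number as a block, the replicate block gave 0.50 for miR-155 (limma adjusted p = 0.744) and 0.18 for miR-223 (limma adjusted p = 0.777), with 0 miRNAs called. Deviations of same-numbered arrays correlated for number 4 (r = 0.75) and not for numbers 1 to 3 (r = -0.14, -0.60 and -0.38), so the numbers were not taken to pair the samples. In both groups the replicate number was also the slide column, so replicate number and slide column cannot be told apart.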
